A study of Mus musculus with 6 samples.

Results

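The subject is a group of 5 genes whose proteins work at the membrane, in membrane repair or in the calcium store of muscle cells: *Casq2*, *Trim72*, *Cavin4*, *Sspn* and *Tmem182*. They were picked by name from the 398 genes of the deposited expression table, where each had a lower FPKM value in QKI-cKO than in QKI-ctrl muscle stem cells (MuSCs). FPKM is a fragment count scaled for both transcript length and library size. Because the genes were chosen from these very values, their levels are given below as a description, with no test.

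QKI-cKO mice (labelled KO, n = 3) carried QKI 2lox/2lox alleles, in which loxP sites flank exon 2 of *Qk*, together with 1 Pax7 CreERT2 allele, which places the inducible recombinase under the promoter of the MuSC gene *Pax7*. QKI-ctrl littermates (labelled WT, n = 3) carried the same QKI 2lox/2lox alleles and no Cre, so the "WT" mice are floxed mice, and effects of carrying Cre and of losing QKI cannot be told apart. Mice of both groups were C57BL/6, 6 to 8 wk old, of both sexes, and received 4-hydroxytamoxifen on 5 consecutive days. ITGA7+/CD45-/CD11b-/Sca1- cells were sorted from abdominal and diaphragm muscle and grown for 72 h in growth medium before polyadenylated RNA was sequenced from each of the 6 cultures. The table gives 1 pooled value per gene and group, under the names q1 and q2. These were read as QKI-ctrl and QKI-cKO because the paper describes *Sspn*, *Myl1* and other genes as reduced in QKI-cKO, so the directions below follow from that reading and are not an independent result. The spread between mice therefore could not be measured, the depth behind each value is unknown, and neither an SD nor a replicate test accompanies any value here. In bulk RNA, fewer cells that express a gene and less RNA per cell cannot be told apart.

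Skeletal muscle fibres release calcium from the sarcoplasmic reticulum to contract and take it up again to relax, and calsequestrins bind the stored calcium inside that compartment. The fibre membrane is held against mechanical stress by the dystrophin-glycoprotein complex, is folded into caveolae that are coated by cavins, and is resealed after tears by vesicles that gather at the wound. Many of these components are made in quantity only when myoblasts leave the cell cycle and differentiate.

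The stretches just upstream of the transcription starts are shown because they are the regulatory sequence that the 5 genes can be compared on. They are the 100 bases before a RefSeq start (GRCm38.p6, plus strand, 5′ to 3′). The stretch at the first *Sspn* start is not shown. Capitals mark E-boxes, CANNTG, a loose motif of which myogenic factors such as MyoD bind some forms:
*Casq2*, chr3:102086315-102086414: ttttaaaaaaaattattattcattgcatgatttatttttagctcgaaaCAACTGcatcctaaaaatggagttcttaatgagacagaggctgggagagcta
*Trim72*, chr7:128004278-128004377: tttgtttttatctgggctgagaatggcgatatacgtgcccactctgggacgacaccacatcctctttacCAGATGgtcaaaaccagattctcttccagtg
*Tmem182*, chr1:40805501-40805600: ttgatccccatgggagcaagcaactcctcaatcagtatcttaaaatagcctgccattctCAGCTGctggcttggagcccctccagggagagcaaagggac
*Sspn*, second start, chr6:145934022-145934121: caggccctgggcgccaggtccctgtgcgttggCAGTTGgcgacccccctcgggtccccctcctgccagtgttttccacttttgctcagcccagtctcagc
*Cavin4*, chr4:48663414-48663513: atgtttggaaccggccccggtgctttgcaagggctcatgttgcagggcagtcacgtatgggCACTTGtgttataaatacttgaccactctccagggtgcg

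In the table as a whole, 170 of 398 genes (42.7%) were lower in QKI-cKO, 43 of them (10.8% of the table) by at least 2-fold. All 5 of the chosen genes were lower, which the choice itself fixed, and 4 of them were lower by at least 2-fold. Their median log2 ratio of QKI-cKO over QKI-ctrl FPKM was -1.60, beside a median of -0.68 over the 170 lower genes and 0.36 over all 398 genes. The targeted gene *Qk* was listed at 262 FPKM in QKI-cKO and at 128 FPKM in QKI-ctrl, higher and not lower in the group read as QKI-cKO. The value covers the whole gene and not exon 2 alone, so it cannot check the deletion, and it gives no help with the naming of the groups. The paper checked the deletion of exon 2 separately, by RT-qPCR of the MuSCs used for sequencing, and reports that it was found.

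*Casq2* encodes calsequestrin 2, the calcium-binding protein of the sarcoplasmic reticulum in heart and slow-twitch muscle. It was listed at 0.118 FPKM in QKI-cKO and at 0.893 FPKM in QKI-ctrl, a log2 ratio of -2.92. The QKI-cKO level was 13.2% of the QKI-ctrl level. This was the lowest ratio of the 5 genes and the eighth lowest among the 170 lower genes, 3 of which are listed at 0 FPKM in QKI-cKO. The gene (ENSMUSG00000027861.13) lies on chr3:102086415-102146514 of GRCm38, and its longest coding transcript has 11 exons and 2556 nucleotides. Multiplying FPKM by that length in kilobases gives an approximate library share in FPM, the same unit without the scaling for length, of 0.302 in QKI-cKO and 2.28 in QKI-ctrl. The number of fragments behind these shares is unknown, and so is the precision of the ratio. The sense-intronic genes *Gm43244* and *4632404M16Rik* lie within *Casq2* on the same strand and are not in the table.

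*Trim72* encodes MG53, a tripartite-motif ubiquitin ligase that brings vesicles to sites of membrane injury in striated muscle. Its level was 0.245 FPKM in QKI-cKO and 0.846 FPKM in QKI-ctrl, with a log2 ratio of -1.79. At the 2134 nucleotides of its longest coding transcript this is about 0.522 FPM in QKI-cKO and 1.80 FPM in QKI-ctrl, again from an unknown number of fragments. The gene (ENSMUSG00000042828.12) lies on chr7:128003949-128011033 on the plus strand, and the minus-strand gene *Gm15533* overlaps its 5′ end from 128001899 to 128005190. The locus given in the table starts at 128001899 and takes in both genes. The libraries were stranded, but whether strand was used in the quantification is not given in the sources used here.

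*Cavin4* encodes cavin-4, the muscle-specific member of the cavin family that coats caveolae. It was listed at 4.09 FPKM in QKI-cKO and 6.69 FPKM in QKI-ctrl, a log2 ratio of -0.71. Its QKI-cKO level was thus 61.2% of the QKI-ctrl level, the smallest change of the 5 genes and the only one under 2-fold. The gene (ENSMUSG00000028348.7) lies on chr4:48663514-48673502 and has 1 coding transcript, of 2 exons and 2054 nucleotides. No other annotated gene overlaps it.

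*Sspn* encodes sarcospan, a small protein with several membrane spans that binds the sarcoglycans within the dystrophin-glycoprotein complex. Its level was 2.38 FPKM in QKI-cKO and 6.69 FPKM in QKI-ctrl, a log2 ratio of -1.49. Measured in FPKM rather than as a ratio, this was the largest difference of the 5 genes, 4.31 FPKM. *Cavin4* and *Sspn* stood at the same level in QKI-ctrl, with a ratio of 0.999 between them, while in QKI-cKO *Cavin4* was 1.72 times as high as *Sspn*. The gene (ENSMUSG00000030255.13) lies on chr6:145931641-145965223, and its antisense neighbour *Sspnos* overlaps it on the minus strand. *Gm43931*, a gene model still to be checked by experiment, lies within it on the same strand.

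*Sspn* was also measured by qPCR in the study, and the paper reports it as lower in QKI-cKO by that measure too. Its primers are shown because they read only part of what the FPKM value counts:
forward: tgggctgggatcattgtctg
reverse: ctggacacatgtcctctcgt
Matched to GENCODE vM21, the pair bounds 90 nucleotides of the transcript that begins at 145934122 (ENSMUST00000032383.13). The forward primer has 15 bases in exon 1 and 5 in exon 2 of that transcript, and both primers lie in its coding sequence of 648 nucleotides. The other coding transcripts of *Sspn*, which begin at 145931641 and 145953429, contain the site of the reverse primer and not that of the forward one. They have a coding sequence of 420 nucleotides. The pooled FPKM counts all of these transcripts together, and no other coding gene held both primer sites.

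*Tmem182* encodes a membrane protein of muscle and fat that has been described as a brake on myoblast fusion. It was listed at 0.300 FPKM in QKI-cKO and 0.907 FPKM in QKI-ctrl, a log2 ratio of -1.60. The QKI-cKO level was 33.0% of the QKI-ctrl level. The gene (ENSMUSG00000079588.3) lies on chr1:40805601-40856887 and has 1 coding transcript of 5 exons and 2716 nucleotides, at which length the levels are about 0.814 FPM in QKI-cKO and 2.46 FPM in QKI-ctrl.

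**Figure D1:**
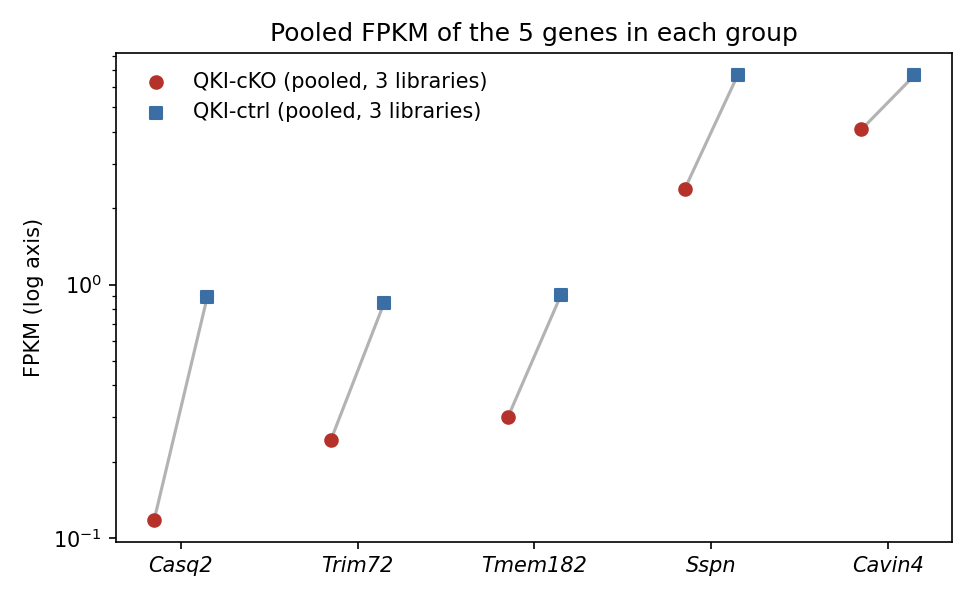
Pooled FPKM (log axis) of the 5 genes, with QKI-cKO as red circles and QKI-ctrl as blue squares, 1 pooled value per group and no error bar because no replicate values were given. *Casq2*, *Trim72* and *Tmem182* lie below 1 FPKM in both groups, while *Sspn* and *Cavin4* start from 6.69 FPKM in QKI-ctrl and differ in QKI-cKO.

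By level the genes formed a low set and a higher set. *Tmem182*, *Casq2* and *Trim72* were at 0.846 to 0.907 FPKM in QKI-ctrl, a range of 1.07-fold, and were among the 56 genes of the table below 1 FPKM in both groups. *Sspn* was 7.49 times as high as *Casq2* in QKI-ctrl. In QKI-cKO the order by level was *Cavin4*, *Sspn*, *Tmem182*, *Trim72* and *Casq2*, with *Cavin4* 34.6 times as high as *Casq2*. Whether neighbours in this order differ beyond the spread between mice could not be assessed. Added together, the 5 genes amounted to 7.13 FPKM in QKI-cKO and 16.02 FPKM in QKI-ctrl, so that the sum in QKI-cKO was 44.5% of that in QKI-ctrl, and the sum rests mainly on *Sspn* and *Cavin4*.

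The table holds only genes that its authors marked as significant. For such genes the paper names limits on false discovery rate, fold change and base mean. The 5 genes were therefore set beside others of like level in the table. Of the 16 genes at 0.8 to 1 FPKM in QKI-ctrl, 11 were lower and 5 were higher in QKI-cKO, and none had an absolute log2 ratio under 0.551. *Casq2*, *Trim72* and *Tmem182* ranked 2, 3 and 4 from the lowest ratio of these 16 genes. Of the 60 genes at 5 to 9 FPKM in QKI-ctrl, 29 were lower and 31 higher, with absolute log2 ratios from 0.321. *Sspn* had the second lowest ratio of these 60 genes, and *Cavin4*, the fifteenth lowest, had the median ratio of the 29 lower ones. *Cavin4* thus stood in the middle of the lower genes of its level, and the other 4 stood near the lower edge of theirs.

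**Figure D2:**
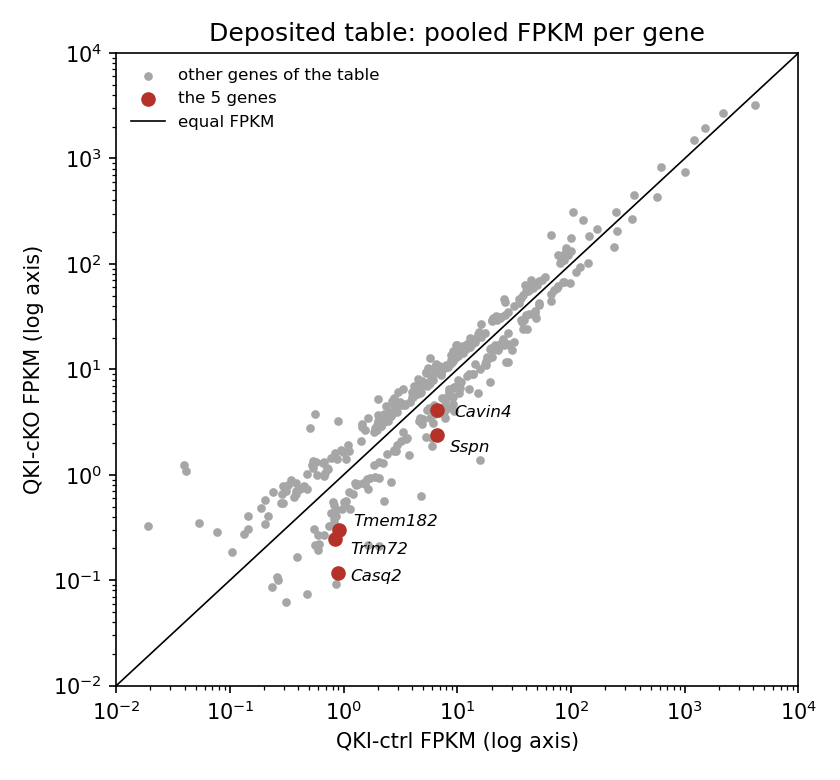
Pooled FPKM in QKI-cKO against QKI-ctrl (both log axes) for the 394 genes above 0 FPKM in both groups, with the 5 genes in red and equal levels as a line. The gap along the line is the absence of genes that were not marked as significant, and it is wider at low FPKM, where *Casq2*, *Trim72* and *Tmem182* lie.

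The size of the ratio depended on how low values were treated. With 1 FPKM added to both groups, the log2 ratio was -0.76 for *Casq2*, -0.57 for *Trim72*, -0.55 for *Tmem182*, -1.19 for *Sspn* and -0.59 for *Cavin4*. On that scale *Sspn* had the lowest ratio and the other 4 genes lay within a narrow range. Only *Sspn* then remained lower by at least 2-fold, against 4 genes with no pseudocount. A constant added to both groups changes the size of a ratio and cannot change its direction.

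**Figure D3:**
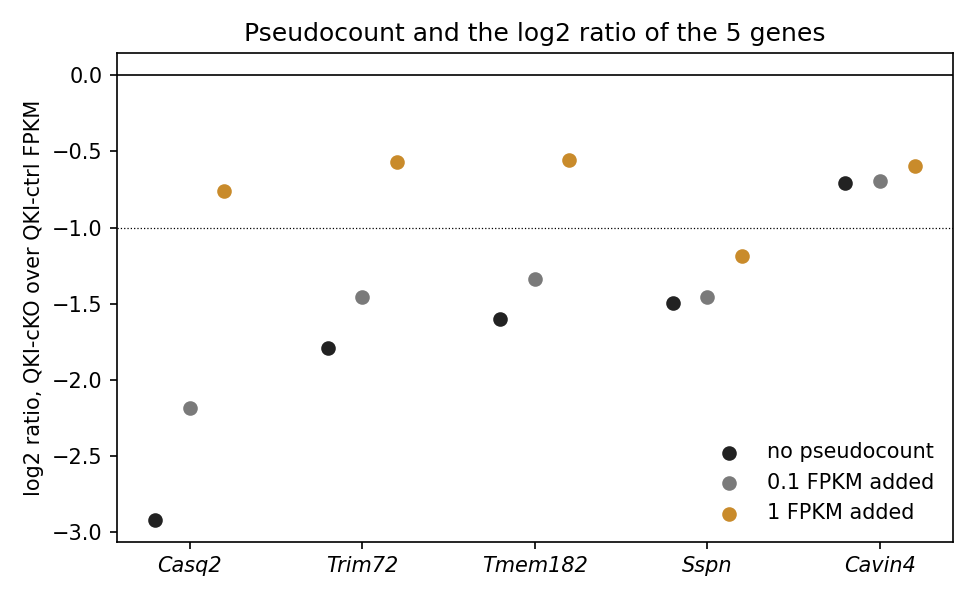
Log2 ratio of QKI-cKO over QKI-ctrl FPKM for each gene with no pseudocount (black), 0.1 FPKM (grey) or 1 FPKM (orange) added to both groups, where the dotted line marks 2-fold lower. *Casq2* moves from -2.92 to -0.76, and *Cavin4* hardly moves (-0.71 and -0.59).

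The partners of these proteins were looked up from lists of genes that work with each. Of 19 genes of the dystrophin-glycoprotein complex, among them dystrophin (*Dmd*), the dystroglycan gene *Dag1* and the sarcoglycans, the table held only *Sspn*. Of 25 genes of caveolae and membrane repair it held only *Cavin4* and *Trim72*, and neither the caveolins nor dysferlin (*Dysf*). Of 31 genes of the calcium store and excitation-contraction coupling it held only *Casq2*, and not the fast-fibre calsequestrin *Casq1*, the ryanodine receptors or the SERCA pumps. The list of 20 genes of myoblast fusion and muscle cell adhesion gave *Tmem182* and the laminin receptor subunit *Itga7*, at 145 FPKM in QKI-cKO and 237 FPKM in QKI-ctrl. A gene outside the table was not marked as significant or not tested, and its level is unknown, so no statement on the direction of these partners can be made. The lists were built around the 5 genes, and how many genes were tested is not given in the sources used here, so there is no share of all genes to set these counts against.

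Sarcomere genes are also made in quantity during differentiation. Of 47 listed sarcomere genes, 13 were in the table, 11 lower and 2 higher in QKI-cKO, with a median log2 ratio of -1.37. Of all 398 genes, 42.7% were lower, and the median log2 ratio over all of them was 0.36. *Myl1*, a myosin light chain of fast fibres, had 0.625 FPKM in QKI-cKO and 4.75 FPKM in QKI-ctrl. Its log2 ratio of -2.93 lay beside that of *Casq2*. *Myl4*, an embryonic and atrial light chain, had 2.22 FPKM in QKI-cKO and 5.93 FPKM in QKI-ctrl and was the gene nearest to *Sspn* in the plane of both log2 levels, 0.199 log2 units away among 334 candidates left once predicted names and the 5 genes themselves were set aside. The exceptions were *Tpm2*, a tropomyosin, at 121 FPKM in QKI-cKO and 76.1 in QKI-ctrl, and the M-band gene *Myom3*, at 1.23 FPKM in QKI-cKO and 0.526 in QKI-ctrl. Of 21 myogenic regulators the table held only *Heyl*, a Notch target, at 1.59 FPKM in QKI-cKO and 2.42 FPKM in QKI-ctrl.

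**Figure D4:**
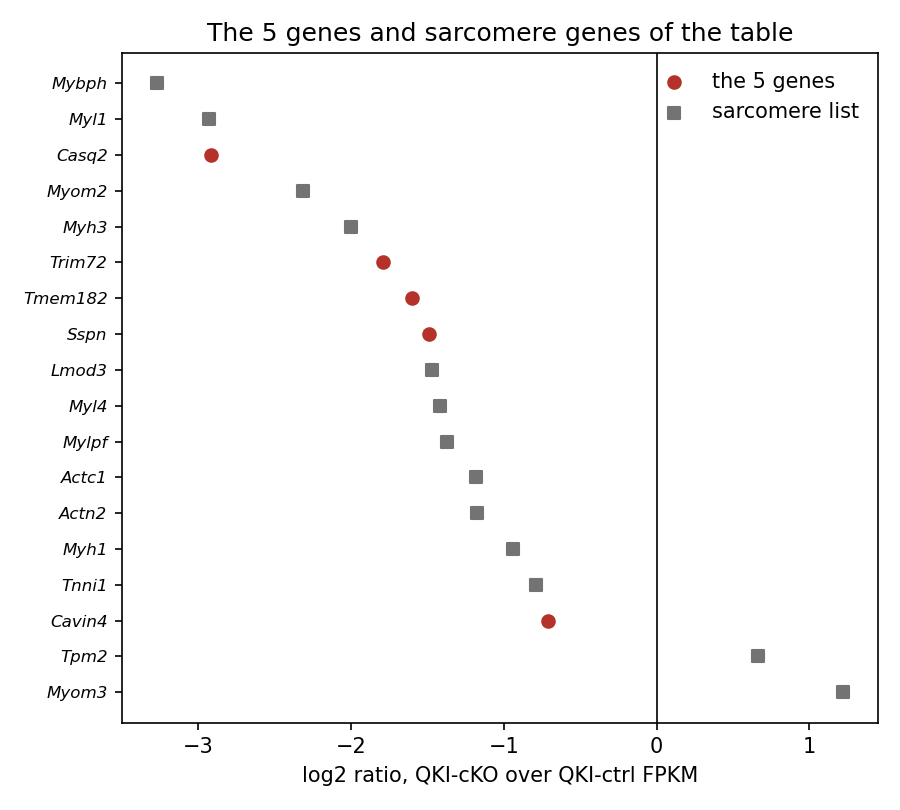
Log2 ratio of QKI-cKO over QKI-ctrl FPKM for the 5 genes (red circles) and the 13 sarcomere genes of the table (grey squares), lowest at the top. *Casq2*, *Trim72*, *Tmem182* and *Sspn* fall within the span of the lower sarcomere genes, from *Mybph* (-3.27) to *Tnni1* (-0.79), while *Cavin4* (-0.71) lies just outside it.

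By the same measure and among the same candidates, the gene nearest to *Cavin4* was *Ank2*, an ankyrin that anchors membrane proteins to the spectrin skeleton. It was at 3.82 FPKM in QKI-cKO and 6.91 FPKM in QKI-ctrl, 0.109 log2 units away. The predicted gene *Gm6560*, not a candidate, was nearer to *Cavin4*, at 3.96 FPKM in QKI-cKO and 6.46 FPKM in QKI-ctrl. The nearest to *Casq2* was *Lmod3*, a leiomodin of the thin filament, at 0.220 FPKM in QKI-cKO and 0.610 FPKM in QKI-ctrl. It was 1.05 log2 units away. The predicted gene *Gm26671*, which that search set aside, had levels nearer to those of *Casq2*, 0.0924 FPKM in QKI-cKO and 0.865 FPKM in QKI-ctrl. The other chosen genes were left out of the candidates as well. Among the candidates, the nearest to *Tmem182* was *Zfp991* (0.261 log2 units) and the nearest to *Trim72* was *AA986860* (0.361 log2 units). Only 2 pooled values stand behind each of these distances.

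The sort and the culture were checked as far as the table allows. Of 10 markers of MuSCs and myoblasts it held *Itga7* and *Vcam1*, both high and both lower in QKI-cKO, with *Vcam1* at 44.9 FPKM in QKI-cKO and 67.1 FPKM in QKI-ctrl. Of the marker lists for leukocytes (7 genes), endothelium (5), fibro-adipogenic cells (5), smooth muscle and pericytes (5), Schwann cells (4) and heart muscle (4), no gene was in the table. Their levels are unknown, so the part of other cell types in the values of the 5 genes was not tested. *Itga7* was itself a marker of the sort, so only *Vcam1* of these markers was separate from it. The levels of the other listed MuSC and myoblast markers are unknown as well. The myoblast identity of the cultures thus rests mainly on the sort.

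The 5 genes lie on 5 different chromosomes, and only 2 of them had another gene of the table within 1 Mb. *Slc9a2*, a sodium-proton exchanger 36328 bp from *Tmem182*, was at 0.410 FPKM in QKI-cKO and 0.853 FPKM in QKI-ctrl, a log2 ratio of -1.06. Near *Trim72*, *Mylpf*, a fast-fibre light chain 787601 bp away, was lower (log2 ratio -1.37) and *Tgfb1i1*, a focal adhesion protein 235779 bp away, was higher (0.43).

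All 5 genes matched the RefSeq promoter table, with 6 windows of 250 bases before to 50 after a start, since *Sspn* has 2 starts there. At least 1 E-box (CANNTG, either strand) was found in 5 of the 6 windows, beside 72.3% of all 32851 windows of that length. The window at the first *Sspn* start, at 145931873, was the one without. In the 100 bases before the start, 5 of the 6 windows had an E-box, exactly 1 each, and 34.5% of all windows had at least 1 in that stretch. These 5 stretches, 1 per gene, are the ones printed above. The stretch at the first *Sspn* start again had none. Counted from the start, these E-boxes began at -52 in *Casq2*, -31 in *Trim72*, -41 in *Tmem182*, -68 at the second start of *Sspn* and -39 in *Cavin4*.

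In the printed stretches, the central letters of the E-boxes differed between the genes, except between *Casq2* and *Sspn*. Their forms, CAACTG and CAGTTG, are the same letters read on opposite strands. Over the full windows a form was shared more widely. CACTTG, the printed form of *Cavin4*, also occurred further upstream in *Casq2*, at -200, and in *Tmem182*, at -193. The printed E-box of *Tmem182* read CAGCTG, a form held by 16.3% of all windows. CACCTG occurred in none of the 6 windows and in 20.2% of all. *Cavin4* had TATAAA at -30 to -25, and *Tmem182* had it on the other strand further upstream. It occurred in 13.6% of all windows over their full length. The MEF2 consensus, a 10-letter motif searched after the other results were known, was found only in *Casq2*, at -69 to -60, and in 3.19% of all windows. The start used for *Trim72*, at 128004378, is that of the shorter of its coding transcripts, and the printed stretch lies in an intron of the longer one. Binding of no factor was measured in this series, and a match to these letters is a description of sequence.

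**Figure D5:**
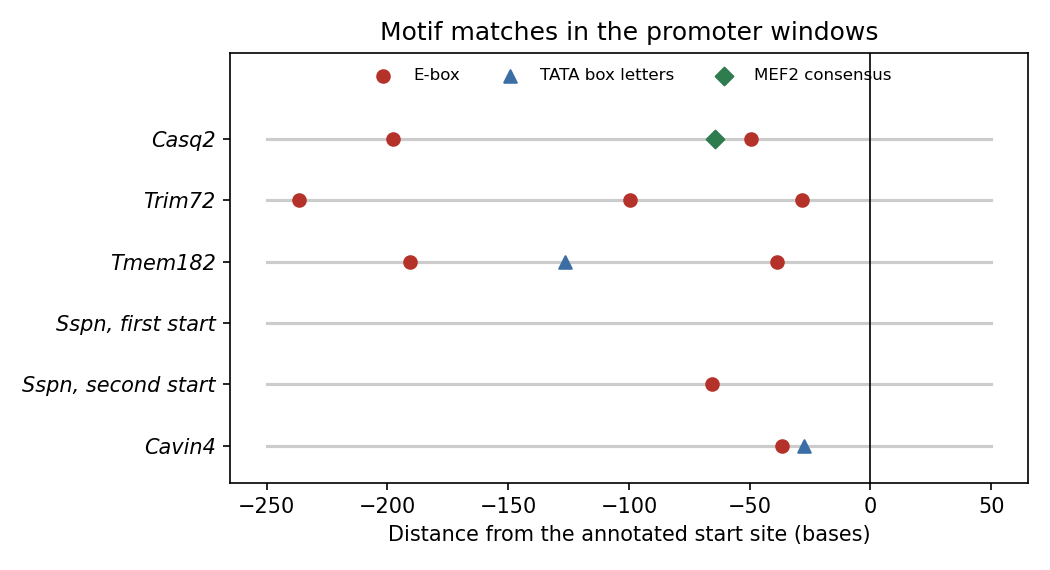
Positions of E-boxes (red circles), TATAAA (blue triangles) and the MEF2 consensus (green diamonds) in the 6 promoter windows of the 5 genes, in bases from the annotated start. Each gene has an E-box between -68 and -26 at 1 of its starts, and the first start of *Sspn* has no match to any motif.

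QKI binds RNA at the QKI response element, ACUAAC or ACUAAU with UAAC or UAAU 1 to 20 bases further on. Because the targeted protein acts on RNA, the longest coding transcript of each gene was searched for it, a search added after the levels were known. Among the 5 genes only *Sspn* had a match, in its 3′ UTR at chr6:145962432-145962448, plus strand. It is shown in DNA letters with both parts of the element in capitals:
*Sspn* element: ACTAATttccagcTAAT
The transcripts of *Casq2*, *Trim72*, *Cavin4* and *Tmem182* had none. Of the longest coding transcripts of all 21901 genes, 9.89% had at least 1 match. Introns were not searched, since no genome sequence was used here.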

How the data were processed

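RNA of 3 QKI-cKO and 3 QKI-ctrl MuSC cultures was compared, with groups taken from the sample titles. Reads had been trimmed (Trimmomatic), mapped to GRCm38 (STAR) and quantified (Cufflinks suite). The deposited table holds 1 FPKM value per gene and group, pooled by the authors and scaled by geometric means of fragment counts, for genes marked as significant only. The columns of the authors' own comparison (fold changes, test statistics, p-values and q-values) were not used.

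Log2 ratios were taken as QKI-cKO over QKI-ctrl FPKM with no pseudocount. Alternatives were pseudocounts of 0.1 and 1 FPKM, limits of 1.5-fold and 3-fold, a minimum of 1 FPKM, exclusion of predicted genes, FPKM differences and a shorter promoter window. With 1 value per group, no test was run. The calculations were tested on simulated data. FPM is approximate, since Cufflinks uses effective lengths of all isoforms. Gene models are from GENCODE vM21 on GRCm38, where 397 of 398 gene IDs matched, and promoters from RefSeq (GRCm38.p6).

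The 5 genes, the gene lists and the bands of like level were chosen with earlier results of these data known. The named genes are the 5 genes, *Qk*, genes of the lists found in the table, and for each of the 5 the nearest gene, outside the 5 and without a predicted name, by Euclidean distance between log2 levels. Neighbours within 1 Mb were added after their values were seen. Python 3.11.15, pandas 2.3.3, numpy 2.4.6 and matplotlib 3.10.9 were used.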

Additional observations from a re-analysis of the deposited data

How the results depend on the processing

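A pseudocount added to both groups makes a ratio smaller by construction and cannot change its direction. With 0.1 FPKM added to both groups, the log2 ratio was -2.19 for *Casq2*, -1.46 for *Trim72*, -1.33 for *Tmem182*, -1.45 for *Sspn* and -0.70 for *Cavin4*, with a median of -1.45. With 1 FPKM added, the values were -0.76, -0.57, -0.55, -1.19 and -0.59 in the same order, with a median of -0.59. Only 1 of the 5 genes, *Sspn*, was then lower by at least 2-fold, and 13 genes of the whole table were. Under a minimum of 1 FPKM for the larger of the pooled values, *Sspn* and *Cavin4* remained, with a median of -1.10, and 20 genes of the table were lower by at least 2-fold, against 43 without that limit. That limit left 1 lower gene of the caveolae and membrane repair list, 0 of the calcium store list and 1 of the fusion and adhesion list. By difference in FPKM instead of log2 ratio, *Sspn* was in place 1, *Cavin4* in place 2, *Casq2* in place 3, *Tmem182* in place 4 and *Trim72* in place 5. In the 100 bases before the start, 1 promoter window held TATAAA, against 2 in the longer window. With limits of 1.5-fold and 3-fold, 5 and 3 of the genes were lower by that much. No paired analysis was possible because the columns carry no replicate numbers, and for the same reason no replicate could be left out. Since the depth is unknown, the precision of the low values of *Casq2*, *Trim72* and *Tmem182* is unknown too.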
